A study of Mus musculus with 4 samples.

Results

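Z-disc and stretch-responsive ankyrin repeat genes of the mouse heart were examined in animals that overexpressed the transcription factor Tbx20 in cardiomyocytes. The 10 genes were the ankyrin repeat genes Ankrd1, Ankrd2 and Ankrd23, the stretch-sensor genes Csrp3 and Tcap, and the structural and signalling genes Ldb3, Actn2, Myoz2, Nebl and Xirp1. They were looked up by symbol in the series-wide table of 23439 symbols with a value for each library, and all 10 were found. They were selected on the FPKM values of these same 4 libraries, with results of the same comparison in view, so their levels and fold changes below are a description and carry no p of their own. RNA sequencing was done on hearts from 4 mice aged 12 weeks, and the labels do not say which parts of the heart were kept. The Tbx20_OE group held 2 hearts of the genotype alphaMHCMerCreMer+/-;CAGCATTbx20, and the control group held 2 hearts of the genotype alphaMHCMerCreMer+/-. Overexpression was switched on at 8 weeks of age and the hearts were taken 4 weeks later. Both groups carried the MerCreMer transgene, a Cre recombinase that acts only when a ligand is given, here under the cardiomyocyte promoter of alpha myosin heavy chain. The sources used here do not state the inducing agent or whether control mice received it. The comparison asks how the adult heart transcriptome differs after cardiomyocyte overexpression of Tbx20.

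The Z-disc is the border between neighbouring sarcomeres, where actin filaments of opposite polarity are cross-linked by alpha-actinin and the ends of titin are anchored. It also carries proteins that respond to stretch, and the muscle ankyrin repeat proteins are the best known group of them. These proteins bind titin in the I-band, can also enter the nucleus, and their transcripts are known to increase in stretched, overloaded or injured muscle. Ankrd1, the cardiac ankyrin repeat protein, is the main one in the heart, Ankrd2 is mostly a slow skeletal muscle protein, and Ankrd23 is found in both kinds of muscle.

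Tbx20 itself was measured at 11.0 and 16.4 FPKM in the 2 Tbx20_OE hearts, against 6.99 and 4.58 FPKM in the 2 control hearts, where FPKM is a level per length of transcript that is scaled to the mapped fragments of a library. The groups did not overlap, and the fitted difference was 1.11 on the log2(FPKM + 1) scale (SE 0.30), a 2.17-fold higher level. Total FPKM was between 452733 and 512225 per library, and the summed level of 10 cardiomyocyte marker genes between 41428 and 46411 FPKM. The single marker genes were less even than their sum. Of the 10, 7 were lowest in control replicate 2, against 54.3% of all tested genes, and the other 3 were highest in that library. Over all tested genes control replicate 2 had Pearson correlations of 0.927 to 0.957 with the other 3 libraries, which correlated at 0.981 to 0.982 with each other. Its 10 atrial markers summed to 3768 FPKM, against 263 and 155 FPKM in the Tbx20_OE hearts and 155 FPKM in control replicate 1. The atrial light chain gene Myl7 was at 958 FPKM in control replicate 2 and at 0.0536 to 4.77 FPKM in the other libraries, while the atrial marker Bmp10 was below 0.1 FPKM in every library. The 7 red cell and platelet markers were also unequal within groups, at 509 and 64.4 FPKM in Tbx20_OE and 102 and 1491 FPKM in control hearts. The 12 skeletal muscle markers, whose cells share the Z-disc genes, summed to 6.36 and 6.82 FPKM in Tbx20_OE and 4.51 and 6.08 FPKM in control hearts. Among these the fast and embryonic myosin genes Myh1, Myh2, Myh4 and Myh3, with Mybpc1 and Ryr1, were below 0.1 FPKM in every library. The number of sequenced fragments was not stated, so counting error is unknown, and fewer cells of a type cannot be told apart from less RNA per cell in such tissue samples.

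Ankrd1 had the largest fitted difference of the 9 genes that were tested. Its level was 415 and 688 FPKM in the Tbx20_OE hearts, against 240.4 and 164 FPKM in the control hearts. Both Tbx20_OE hearts were above both control hearts, and the group means were 551 ± 193 FPKM in Tbx20_OE and 202 ± 53.7 FPKM in control (SD, n = 2 each). The fitted log2 difference was 1.42 (SE 0.37), a 2.68-fold higher level on the log2(FPKM + 1) scale. The median difference of all tested genes was 0.15 in the same direction, and Ankrd1 was 1.27 above that median. The gene lies on the minus strand at chr19:36111965-36119844 of mm10.

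Ankrd23, which encodes the diabetes-related ankyrin repeat protein, was measured at 84.9 and 162 FPKM in Tbx20_OE hearts, against 80.4 and 59.6 FPKM in control hearts. The groups did not overlap, but Tbx20_OE replicate 1 lay close to control replicate 1. Means were 124 ± 54.7 FPKM in Tbx20_OE and 70.0 ± 14.7 FPKM in control (SD, n = 2 each), and the log2 difference of 0.75 (SE 0.39) was a 1.69-fold higher level. Without Tbx20_OE replicate 2 the log2 difference of Ankrd23 was 0.29, and without Tbx20_OE replicate 1 it was 1.22, so its size depended on which of these hearts was kept. The corresponding values for Ankrd1 were 1.06 and 1.78. Ankrd23 lies on the minus strand at chr1:36530534-36535729.

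Ankrd2 was near the floor of the measurement in 3 libraries. It was listed at 0.201 and 0.219 FPKM in Tbx20_OE hearts, against 0.125 and 1.37 FPKM in control hearts. The highest of these values came from control replicate 2, and the groups overlapped. With a mean of 0.479 FPKM over the 4 libraries the gene was below the minimum of 1 FPKM used for testing, so it is the 1 of the 10 genes left out of the test. With no filter on low values its log2 difference was -0.43, a value that the pseudocount of 1 keeps small at this level. It lies at chr19:42036038-42045110 on the plus strand, 5916 kb from Ankrd1 on the same chromosome.

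**Figure D1:**
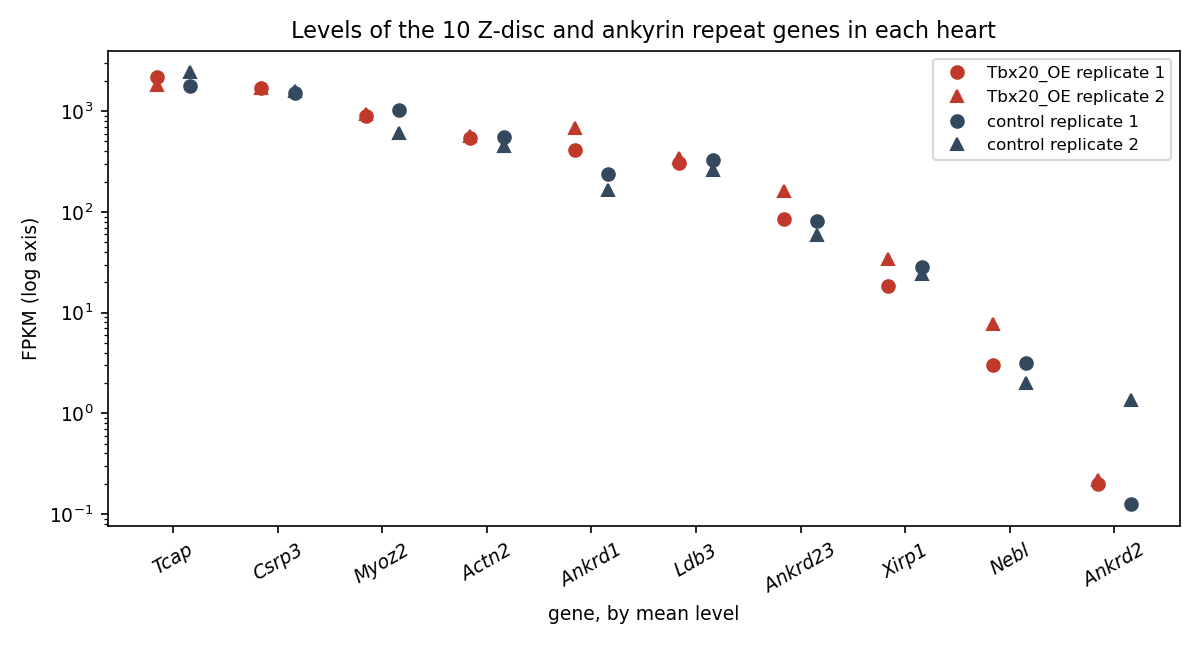
FPKM on a log axis for each of the 10 genes in each heart, ordered by mean level, with Tbx20_OE hearts in red left of control hearts in dark blue and 1 point for each heart. The red points of Ankrd1, at 415 and 688 FPKM, lie above its control points, at 240.4 and 164 FPKM, while most other genes have points that mix.

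Because Ankrd1 and Ankrd23 had the same order of libraries and Csrp3 did not, the 250 bases before an annotated start of each of these 3 genes are shown. They are as given by RefSeq on GRCm38.p6, 5′ to 3′ on the gene's own strand. The windows are chr19:36119845-36120094 for Ankrd1, chr1:36535740-36535989 for Ankrd23 and chr7:48848052-48848301 for Csrp3, all on the minus strand. Capitals mark the T-box motif GGTGTG and the M-CAT motif CATTCC, a motif bound by TEAD factors, each searched on both strands. A match on the other strand is written as its reverse complement.
Ankrd1: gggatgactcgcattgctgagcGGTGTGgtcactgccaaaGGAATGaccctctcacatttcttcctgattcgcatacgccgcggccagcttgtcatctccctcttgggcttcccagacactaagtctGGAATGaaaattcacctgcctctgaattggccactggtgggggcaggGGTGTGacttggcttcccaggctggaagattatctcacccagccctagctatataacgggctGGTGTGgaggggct
Ankrd23: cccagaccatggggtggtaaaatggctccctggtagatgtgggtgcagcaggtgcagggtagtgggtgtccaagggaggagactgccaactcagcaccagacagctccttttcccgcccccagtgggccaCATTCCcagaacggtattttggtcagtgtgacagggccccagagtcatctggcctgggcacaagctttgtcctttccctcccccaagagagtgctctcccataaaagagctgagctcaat
Csrp3: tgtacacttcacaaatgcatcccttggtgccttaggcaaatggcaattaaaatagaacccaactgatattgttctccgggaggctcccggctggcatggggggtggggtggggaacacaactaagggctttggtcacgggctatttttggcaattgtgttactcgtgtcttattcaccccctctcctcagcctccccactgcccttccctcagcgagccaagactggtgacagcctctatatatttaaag

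The Ankrd1 window held 3 T-box motifs, at 228 to 223, 76 to 71 and 14 to 9 bases before the start, all on the gene's strand. It also held 2 M-CAT motifs, at 210 to 205 and 123 to 118 bases, both on the other strand, and no match overlapped another. The Ankrd23 window had no T-box motif and 1 M-CAT motif at 120 to 115 bases, and the Csrp3 window had neither. Of 32851 promoter windows of the same length, 16.3% held at least 1 T-box motif, 2.09% at least 2 and 0.399% at least 3. M-CAT motifs were in 12.6% of windows, and 1.02% held at least 2. Windows were given for 8 of the 10 genes. Ankrd23, Csrp3 and Ldb3 had 2 windows each and Nebl had 4, for different annotated starts. Only the window nearest the deposited start of each gene was searched, while the shares above count every window. Among the rest, Ankrd2 had 1 T-box motif, Ldb3 had a CArG element, a serum response factor motif found in 1.47% of windows, and Myoz2 had a MEF2 element, found in 0.508%. CArG and MEF2 elements were searched on both strands, and these short matches describe letters, not bound sites.

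Csrp3 and Tcap, the genes of the classical Z-disc stretch sensor, differed little between the groups. Csrp3 encodes muscle LIM protein, and it was measured at 1682 and 1679.7 FPKM in Tbx20_OE hearts, against 1510.2 and 1596 FPKM in control hearts. The groups were apart, by a small margin, with means of 1681 ± 1.74 FPKM in Tbx20_OE and 1553 ± 60.7 FPKM in control (SD, n = 2 each). The log2 difference was 0.11 (SE 0.26), which is 0.03 below the median of all tested genes before rounding, and it turned negative, to -0.05, after median centring and to -0.13 with GC-corrected values. Tcap encodes telethonin, which joins the ends of neighbouring titin molecules, and it had 2159.6 and 1803 FPKM in Tbx20_OE hearts, against 1784 and 2428 FPKM in control hearts. The control hearts enclosed the Tbx20_OE hearts, and the log2 difference was -0.08 (SE 0.30). It was 0.15 without control replicate 2, -0.30 without control replicate 1 and 0.05 without Tbx20_OE replicate 2, so its direction depended on single libraries. Csrp3 lies at chr7:48830398-48848051 on the minus strand and Tcap at chr11:98383811-98384953 on the plus strand.

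The structural core of the Z-disc was at similar levels in both groups. Actn2 encodes the actin cross-linker alpha-actinin 2, and it was measured at 539 and 569 FPKM in Tbx20_OE hearts, against 551 and 456 FPKM in control hearts. Ldb3, also called Cypher, encodes a PDZ and LIM protein that binds alpha-actinin, and had 305 and 341 FPKM in Tbx20_OE hearts, against 328 and 261 FPKM in control hearts. In both genes control replicate 2 was the lowest library and control replicate 1 lay among the Tbx20_OE hearts, so the groups overlapped. The log2 differences were 0.14 for Actn2 (SE 0.26) and 0.14 for Ldb3 (SE 0.27). Neither direction was stable, since median centring gave -0.02 for each gene, and Ldb3 was also at -0.07 with GC-corrected values and at -0.03 without control replicate 2. Without control replicate 1 the differences were 0.28 for Actn2 and 0.30 for Ldb3. Actn2 lies at chr13:12269427-12340732 and Ldb3 at chr14:34526699-34588681, both on the minus strand.

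Myoz2 encodes calsarcin-1, a Z-disc protein that binds calcineurin and is known to restrain it in the heart. It had 904 and 935 FPKM in Tbx20_OE hearts, against 1029 and 600.2 FPKM in control hearts. The control hearts were the highest and the lowest library, and the log2 difference of 0.23 (SE 0.34) became -0.16 without control replicate 2, 0.61 without control replicate 1 and -0.06 with GC-corrected values. The gene lies at chr3:123006206-123034987 on the minus strand.

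Nebl and Xirp1, which encode actin-binding proteins, varied more between the 2 Tbx20_OE hearts than the other structural genes did. Nebl encodes nebulette, the cardiac relative of nebulin, and was measured at 3.01 and 7.76 FPKM in Tbx20_OE hearts, against 3.19 and 2.02 FPKM in control hearts. Tbx20_OE replicate 2 was high and the other 3 libraries were near each other, so the groups overlapped. Its log2 difference of 0.74 (SE 0.41), a 1.66-fold higher level, was 0.17 without Tbx20_OE replicate 2, 1.30 without Tbx20_OE replicate 1, 0.50 without control replicate 2 and 0.45 with GC-corrected values. Xirp1 encodes Xin, an actin-binding protein of the intercalated disc in the heart, and had 18.4 and 34.1 FPKM in Tbx20_OE hearts, against 28.1 and 24.4 FPKM in control hearts. The Tbx20_OE hearts enclosed the control hearts, the means were 26.3 ± 11.1 FPKM in Tbx20_OE and 26.3 ± 2.64 FPKM in control (SD, n = 2 each), and the log2 difference was -0.06 (SE 0.34). The Xirp1 difference was 0.37 without Tbx20_OE replicate 1, -0.49 without Tbx20_OE replicate 2 and 0.04 without control replicate 1. Nebl lies at chr2:17346734-17731068 and Xirp1 at chr9:120013755-120023598, both on the minus strand.

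**Figure D2:**
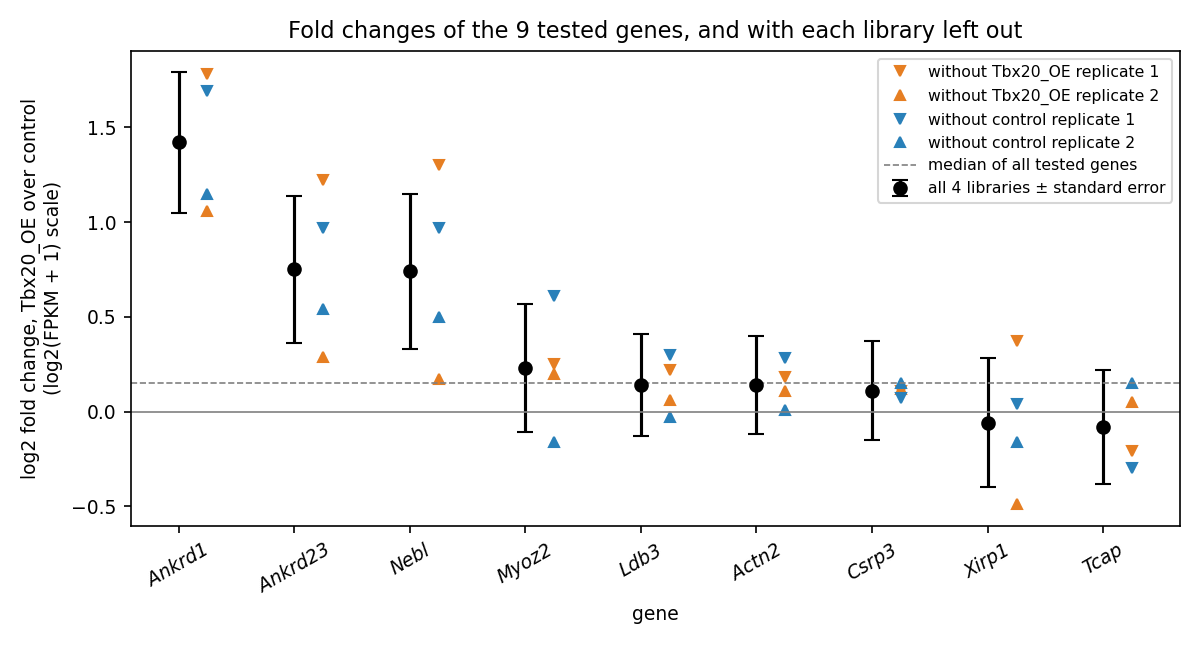
Log2 fold change of Tbx20_OE over control for the 9 tested genes, with black points for all 4 libraries, bars for the standard error, and triangles for the fit with 1 library left out. Ankrd1 stays between 1.06 and 1.78 whichever library is left out, Ankrd23 runs from 0.29 to 1.22 and Nebl from 0.17 to 1.30, and the dashed line is the median of all tested genes at 0.15.

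Of the 10 genes, 9 passed the filter on low values and were tested among 10513 genes. None of the 9 was called by the limma moderated test at an adjusted p under 0.05, where 0.0190% of all tested genes, 2 genes, were called, both of them higher in Tbx20_OE, and 0% were called lower. Tbx20, the overexpressed gene itself, was not called either, with an adjusted p of 0.848 by the same limma test. A gene without a call may therefore still differ. At an unadjusted p under 0.05 the test picked 1.52% of all tested genes, with Ankrd1 as the 1 of the 9 among them. That is no evidence about Ankrd1, because the 9 genes were selected on these same values. Leaving out control replicate 1 brought Ankrd1 past the adjusted threshold, with a log2 difference of 1.69, and that setting called 13.6% of all tested genes, 1433 in number. Leaving out control replicate 2, the library with high atrial markers, called none of the 9 and 0.209% of all tested genes, and the log2 difference of Ankrd1 was then 1.15 and that of Ankrd23 0.54. Leaving out Tbx20_OE replicate 1 or 2 also called none of the 9, against 0.105% and 0.0571% of all tested genes.

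The 2 Tbx20_OE hearts were above both control hearts for 3 of the 9 tested genes, Ankrd1, Ankrd23 and Csrp3, against 28.1% of all tested genes. They were below both for none of the 9, against 4.77%. Ankrd1 and Ankrd23 were apart and at least 1.5-fold higher, as were 2.69% of all tested genes. The difference was positive for 7 of the 9 genes and negative for Tcap and Xirp1, while 71.1% of all tested genes were positive. The median log2 difference was 0.14 for the 9 genes and 0.15 for all tested genes. Csrp3, Ldb3, Actn2 and Myoz2 lay between the 25th and 75th percentiles of all tested genes, at -0.03 and 0.33, Tcap and Xirp1 below them, and Ankrd1, Ankrd23 and Nebl above the 95th percentile, at 0.60. In all, 20 genes (0.190%) had a log2 difference at or above that of Ankrd1 and 184 (1.75%) at or above that of Ankrd23, each counting the gene itself. Of the 9 genes, 6 were lowest in control replicate 2, against 54.3% of all tested genes, and 6 were highest in Tbx20_OE replicate 2, against 38.0%. Ankrd1 and Ankrd23 followed the order of Tbx20 over the 4 libraries, which is Tbx20_OE replicate 2, Tbx20_OE replicate 1, control replicate 1 and control replicate 2 from high to low. That order was also found in 14.8% of the other tested genes.

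The median log2 difference of all tested genes was 0.15 and not 0, so the directions were also read after other scalings. Ankrd1 stayed at 1.26 after median centring, 1.44 in the authors' quantile-normalized table, 1.17 with GC-corrected values and 1.42 after scaling each library to 10 cardiomyocyte genes. Ankrd23 was at 0.59, 0.68, 0.72 and 0.75 under the same scalings. The cardiomyocyte genes summed to 46411 and 41428 FPKM in Tbx20_OE hearts, against 44207 and 43486 FPKM in control hearts. On the log scale these sums had nearly the same mean in both groups, so scaling to them could hardly move any log2 difference. The unchanged values under that scaling therefore do not show that the differences are stable. With median centring, which moved the all-gene median to -0.012, Ankrd1 was the only one of the 9 genes whose groups were apart with Tbx20_OE higher. After scaling to the cardiomyocyte genes both Ankrd1 and Ankrd23 were apart, Ankrd23 by a very small margin. Per 1000 FPKM of the cardiomyocyte genes Ankrd23 had 1.83 and 3.91 FPKM in Tbx20_OE hearts, against 1.82 and 1.37 FPKM in control hearts. GC content of the transcript moved with the libraries: across 10029 genes its Spearman rho with each gene's deviation from its own mean was 0.45 in control replicate 2, -0.30 in control replicate 1, -0.38 in Tbx20_OE replicate 2 and -0.15 in Tbx20_OE replicate 1. Genes share a library in this correlation and are not independent. The longest annotated transcripts of the 10 genes ran from 39.7% GC for Myoz2 to 61.3% for Tcap, with Ankrd1 at 47.9% and Ankrd23 at 56.0%.

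**Figure D3:**
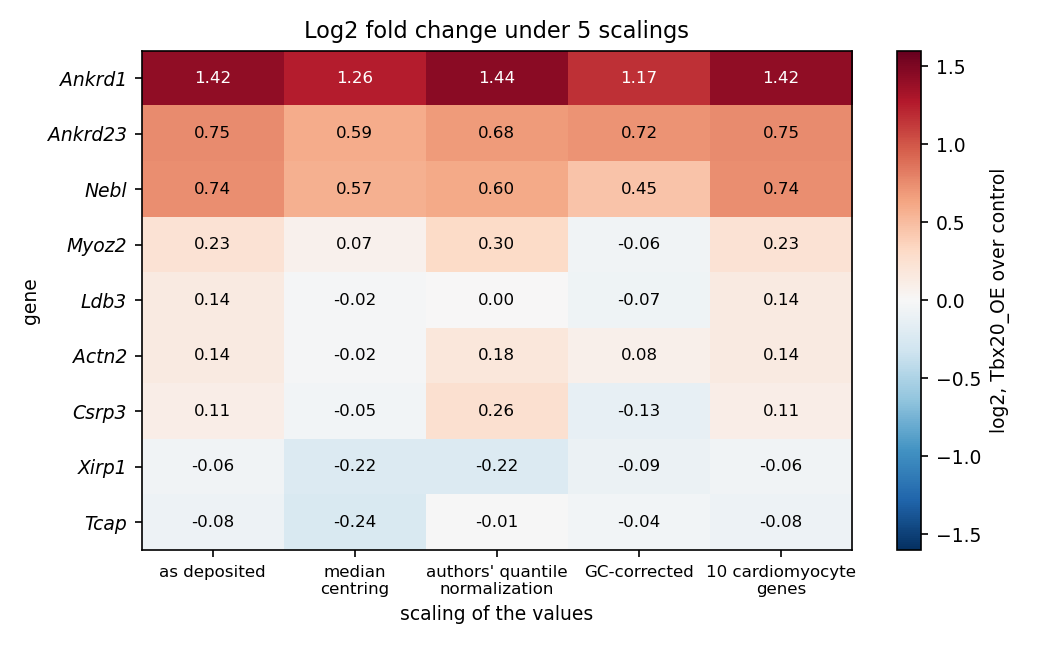
Log2 fold change of Tbx20_OE over control (colour and printed value) for the 9 tested genes in rows under 5 scalings of the FPKM values in columns. Ankrd1 lies between 1.17 and 1.44 in every column and Ankrd23 between 0.59 and 0.75, while Csrp3 runs from -0.13 to 0.26.

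The FPKM levels of the 10 genes, which are per length of transcript, ran from abundant sarcomere transcripts to a barely detected one. Tcap was the most abundant at a mean of 2044 FPKM over the 4 libraries, 35th among the tested genes. It was followed by Csrp3 at 1617, Myoz2 at 867, Actn2 at 528, Ankrd1 at 377, Ldb3 at 309, Ankrd23 at 96.8, Xirp1 at 26.3, Nebl at 4.00 and Ankrd2 at 0.479 FPKM. Neighbours in this order had ranges over the 4 libraries that did not overlap, except Actn2 with Ankrd1 and Ankrd1 with Ldb3. Ankrd1 was above Ldb3 in both Tbx20_OE hearts and below it in both control hearts. In Tbx20_OE replicate 2 it was also above Actn2, which no other library showed. The highest library was 4.18 times the lowest for Ankrd1, 3.84 for Nebl and 2.72 for Ankrd23, against 1.11 for Csrp3 and 1.25 for Actn2. For the barely detected Ankrd2 it was 11.0 times, set by control replicate 2.

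Ratios within a library do not change when all its values are multiplied by the same factor. Quantile normalization and GC correction can change them. Per 100 FPKM of Csrp3, Ankrd1 had 24.7 and 40.9 FPKM in Tbx20_OE hearts, against 15.9 and 10.3 FPKM in control hearts. Ankrd1 was 4.89 and 4.24 times Ankrd23 in Tbx20_OE hearts, against 2.99 and 2.76 times in control hearts, so this ratio was also apart between the groups. The log2 differences of Ankrd1 and Ankrd23 were 1.42 and 0.75 as deposited and 1.17 and 0.72 with GC-corrected values. Whether their ratio stays apart after GC correction was not computed. For Ankrd23 per 100 FPKM of Csrp3 the groups overlapped, at 5.05 and 9.66 in Tbx20_OE hearts and 5.33 and 3.73 in control hearts. Tcap over Csrp3 was 1.28 and 1.07 in Tbx20_OE hearts and 1.18 and 1.52 in control hearts, and Myoz2 over Actn2 was 1.68 and 1.64 in Tbx20_OE hearts and 1.87 and 1.32 in control hearts. Both of these ratios overlapped. Together the 10 genes made up 1.19% and 1.37% of all FPKM in Tbx20_OE hearts, against 1.17% and 1.14% in control hearts.

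The genes whose pattern over the 4 libraries lay nearest to that of Ankrd1 were found by the root mean square distance of centred log2 values, among 9970 tested genes. Genes with names of predicted genes, pseudogenes, microRNAs or small nucleolar RNAs were left out before ranking. Tbx20 was the nearest at a distance of 0.169, followed by Atcayos at 0.196 and Nabp1 at 0.225. Atcayos, an antisense gene of Atcay, was at 12.7 and 23.1 FPKM in Tbx20_OE hearts, against 4.94 and 3.75 FPKM in control hearts, and since the strand setting is unknown its reads cannot be told from those of Atcay. Nabp1, which encodes a protein binding single-stranded nucleic acid, was at 9.03 and 16.4 FPKM in Tbx20_OE hearts, against 7.71 and 3.56 FPKM in control hearts. Among the other members Ankrd23 ranked 26 at 0.344 and Nebl ranked 44 at 0.372. These places depended on the scaling and on the libraries used. Tbx20 ranked 4 in the authors' quantile-normalized values and 2 with GC-corrected values. Without Tbx20_OE replicate 2 Ankrd23 ranked 1624 and Nebl 3164, and without control replicate 1 they ranked 468 and 575. Tbx20 ranked 4 or 5 without either Tbx20_OE heart or without control replicate 2, and 63 without control replicate 1. With 4 libraries in 2 groups, many genes share a pattern. Csrp3, which was nearly flat, had Psd3 at 0.00352 and Pik3c2b at 0.00911 among its nearest genes.

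**Figure D4:**
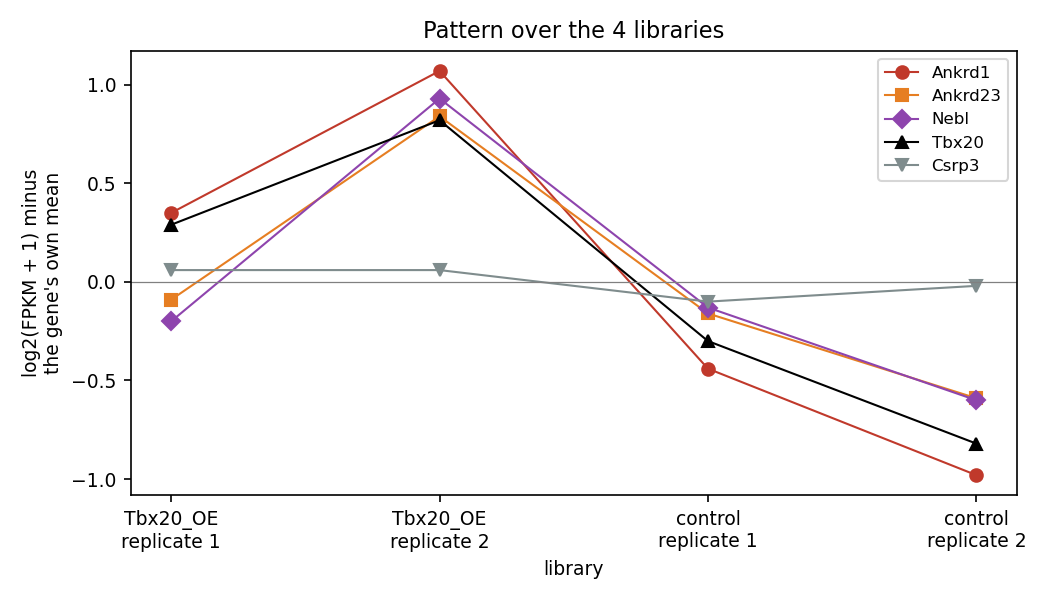
Log2(FPKM + 1) minus the gene's own mean over the 4 libraries, for Ankrd1, Ankrd23, Nebl, Tbx20 and Csrp3 in each library, with lines joining the points of a gene only to guide the eye. Ankrd1 and Tbx20 have the same order of libraries, highest in Tbx20_OE replicate 2 and lowest in control replicate 2, and Csrp3 is nearly flat.

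The other Z-disc genes give the setting. Of a list of 37, 33 were tested and none was called at an adjusted p under 0.05. Csrp1, which encodes a relative of muscle LIM protein and is named after its values were seen, was the 1 gene at an unadjusted p under 0.05, with 20.2 and 19.9 FPKM in Tbx20_OE hearts, against 13.7 and 12.5 FPKM in control hearts. The median log2 difference was 0.22, with 24 genes positive and 9 negative, while 71.1% of all tested genes were positive. Groups were apart and higher in Tbx20_OE for 9 of the 33 genes, a share close to the 28.1% of all tested genes. Among them was Pdlim5, which encodes a PDZ and LIM protein related to that of Ldb3. Pdlim5 had 219.8 and 284 FPKM in Tbx20_OE hearts, against 208 and 102 FPKM in control hearts. The LIM-only gene Fhl2, whose protein binds titin, had 1014 and 1021 FPKM in Tbx20_OE hearts, against 960.1 and 469 FPKM in control hearts. In both genes control replicate 2 was far below the other libraries. It was the lowest library for 21 of the 33, against 54.3% of all tested genes. Obsl1, an obscurin-like gene named after its values were seen, was the 1 gene apart and lower, with 10.6 and 11.2 FPKM in Tbx20_OE hearts, against 12.1 and 13.6 FPKM in control hearts. The intermediate filament gene Des and the small heat shock gene Cryab, also chosen after their values were seen, had log2 differences of -0.26 and -0.16 with overlapping groups.

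Titin and mechanosensing genes, a list of 20 of which 19 were tested, had no call at an adjusted p under 0.05. Their median log2 difference was 0.16, with 15 positive and 4 negative differences, while 71.1% of all tested genes were positive. The 1 gene at an unadjusted p under 0.05 was Acta1, the skeletal alpha-actin gene that is re-expressed in the overloaded adult heart. It had 454 and 402 FPKM in Tbx20_OE hearts, against 148 and 291 FPKM in control hearts, a 2.05-fold higher level with groups apart. Its order of libraries differed from that of Ankrd1, and it ranked 3547 by distance from it. Trim55, which encodes a titin-binding ubiquitin ligase, had 8.99 and 19.7 FPKM in Tbx20_OE hearts, against 11.5 and 2.81 FPKM in control hearts, and its groups overlapped. Nppb, which encodes the natriuretic peptide BNP and is known to respond to wall stretch, had 154 and 427 FPKM in Tbx20_OE hearts, against 292 and 179 FPKM in control hearts. These overlapped, with a log2 difference of 0.16 (SE 0.55). Titin itself, Ttn, was at 29.0 and 35.2 FPKM in Tbx20_OE hearts, against 24.0 and 38.2 FPKM in control hearts. Myh7, the slow myosin gene, had 248 and 181 FPKM in Tbx20_OE hearts, against 192 and 419 FPKM in control hearts, with a log2 difference of -0.42 (SE 0.44). Nppb, Ttn and Myh7 were named after their values were seen.

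The wider family of genes named Ankrd, which share the repeat but not the tie to titin, held 43 further genes, of which 22 were tested. None was called at an adjusted p under 0.05 and none at an unadjusted p under 0.05. The median log2 difference was 0.18, with 18 positive and 4 negative, while 71.1% of all tested genes were positive. Groups were apart and higher in Tbx20_OE for 7 of the 22, against 28.1% of all tested genes. Among the 7 was Ankrd28, a subunit of protein phosphatase 6, at 2.17 and 3.84 FPKM in Tbx20_OE hearts, against 2.06 and 1.03 FPKM in control hearts. Ankrd32 had the largest log2 difference of the list, 0.66 (SE 0.36), with 3.18 and 4.38 FPKM in Tbx20_OE hearts, against 3.20 and 1.14 FPKM in control hearts, and overlapping groups. Ankrd54, named after its values were seen, was the 1 gene apart and lower, at 2.89 and 2.27 FPKM in Tbx20_OE hearts, against 3.31 and 4.71 FPKM in control hearts. No difference in this list reached the 0.75 of Ankrd23, but some in the other lists did. Among the other Z-disc genes these were Pdlim5 at 0.78 and Capza2, named after its values were seen, at 0.93. Among the titin and mechanosensing genes they were Trim55 at 1.06 and Acta1 at 1.04.

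**Figure D5:**
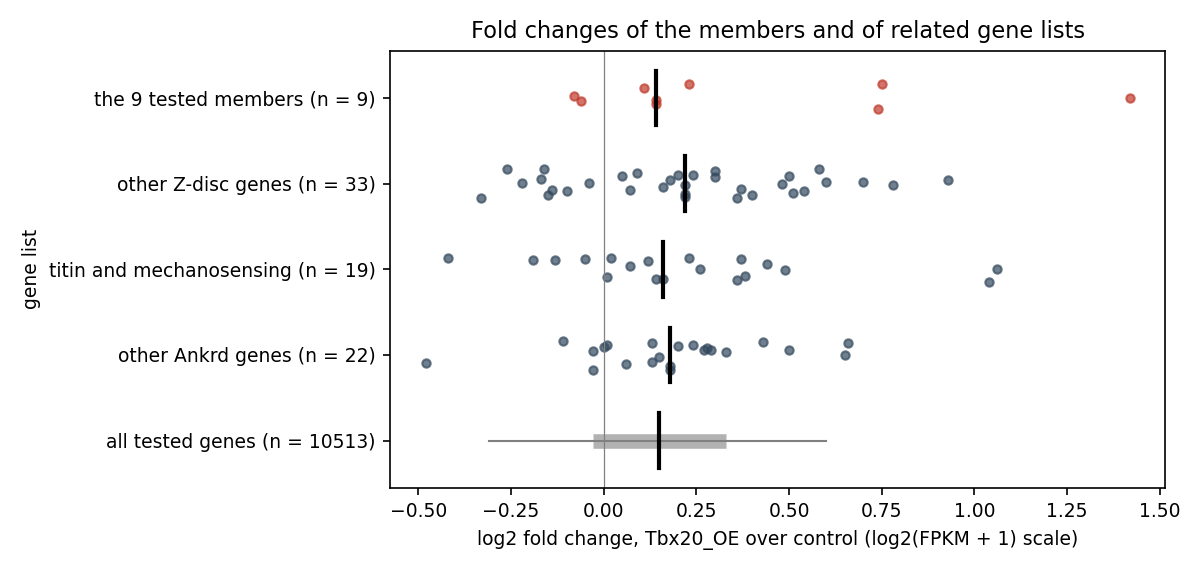
Log2 fold change of Tbx20_OE over control for each tested gene of the 9 genes and of the other Z-disc, titin and mechanosensing, and Ankrd lists, 1 point for each gene with the median as a black bar. The bottom row gives all tested genes, with the median of 0.15, a thick bar from the 25th to the 75th percentile, and a thin line from the 5th to the 95th, at -0.31 and 0.60, and Ankrd1 lies at 1.42.

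In the authors' deposited table of their own cuffdiff comparison, none of the 10 genes was marked significant, against 0.241% of the genes with a completed test. Tbx20 was not marked significant in the authors' deposited table either, with a q-value of 0.911. The authors' deposited table gives Ankrd1 as 943 FPKM in Tbx20_OE and 398 FPKM in control, a ratio of 2.37 with a q-value of 0.518. For Ankrd23 the authors' deposited table has 202 FPKM in Tbx20_OE and 115 FPKM in control, a ratio of 1.75 with a q-value of 0.999. Both genes carry the authors' flag for higher expression, which the authors' deposited table sets for 0.475% of genes, and none of the 10 carries the flag for lower expression, set for 0.887%. Nebl had a ratio of 1.62 in the authors' deposited table, while Csrp3, Tcap, Ldb3, Actn2, Myoz2 and Xirp1 had ratios between 0.992 and 1.09. Ankrd2, at 0.388 FPKM in Tbx20_OE and 1.31 FPKM in control in the authors' deposited table, had a ratio of 0.296. The FPKM levels of that table were scaled separately from those of the single libraries and are not set against them.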

How the data were processed

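Total RNA of 4 mouse hearts was sequenced, 2 Tbx20_OE and 2 control, and per the labels' protocols every library came from a single heart. The submitters' processing notes name the mm10 build, Cufflinks 2.1.1 and TopHat2 2.0.13. The annotation release, strand and mapping settings were not stated. The authors deposited FPKM values for each gene and library, already scaled to transcript length and library size, and a quantile-normalized FPKM table. Their comparison table holds cuffdiff 2.1.1 FPKM values, p-values and q-values, per the file headers, and selection flags deposited as scores of 0 or 1. Depth is unknown, because low FPKM values held no trace of whole reads: no more than 0.62% of genes under 0.3 FPKM had a ratio in common between libraries, to within 0.002 in log2 units.

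Left out were 4 genes with a failed estimate and 1 unmatched gene, and a symbol with several loci was represented by its most abundant entry. Values were analysed as log2(FPKM + 1) for the 10513 genes with a mean of at least 1 FPKM. The moderated test of limma 3.58.1 (R 4.3.3) had a mean-variance trend and no term beside the group, and p-values were adjusted over all tested genes by the Benjamini-Hochberg method. A gene was called at an adjusted p under 0.05. Fold changes on this scale understate those of low genes. On simulated data for 10513 genes the share called was 20% at a 2-fold change and 90% at a 4-fold change, and 5 of 10313 unchanged genes were called. The simulated noise was independent between genes and lacked the deviations that genes of a library share in the real data. These shares therefore need not hold for the real libraries and may be too high. Positions are those of the deposited tables with 1 added to the start. GC content was computed on the longest transcript in GENCODE M21, and promoter windows are from RefSeq.

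The 10 genes, the lists and the markers were chosen with earlier results of these data known. Beside the 10 genes and Tbx20, the text names up to 4 tested genes of each list with groups apart and a change of at least 1.5-fold, or the 2 largest where fewer than 2 qualify, and the 3 genes nearest to Ankrd1 and to Csrp3, of which 1 is not reported here. Further names are marked as chosen after their values were seen. As alternatives, the pseudocount, low-value filter, scaling, value source and trend were varied, a replicate block was added, and libraries were left out 1 at a time. Chosen after seeing the data were a crossed block, GC-corrected values in 10 bins and scaling to 10 cardiomyocyte genes. The remaining steps ran in Python 3.11.15, with numpy 2.4.6, pandas 2.3.3, matplotlib 3.10.9 and scipy 1.17.1.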

Additional observations from a re-analysis of the deposited data

How the results depend on the processing

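The number of genes called, 2 of 10513, was 1 with no filter on low values, with a pseudocount of 0.1 and with values joined by locus. It ran from 6 to 1433 with each library left out, the highest being without control replicate 1. In that fit the lone control heart is assumed to vary like the Tbx20_OE hearts. The shared replicate numbers were treated as names, because the labels do not say whether same-numbered hearts belong together. Over genes, the differences between replicates 1 and 2 in the 2 groups had a correlation of -0.45. Control replicate 2, which stood apart from the other libraries, enters this value. The correlation therefore cannot decide whether the numbers stand for a batch. A replicate block gave 6 calls, a crossed block, chosen after seeing the data, gave 30, and the cause was not tested. The number of the 9 genes called, 0, was 1, Ankrd1, with the crossed block, and 0 to 1 over the left-out libraries. For the other Z-disc genes this range was 0 to 4, for the titin and mechanosensing genes 0 to 3 and for the other Ankrd genes 0 to 1, the highest without control replicate 1 each time. Of all 10 genes, the 3 with groups apart and higher in Tbx20_OE became 1 with median centring, which shifts every library by a constant, and 3 to 7 over the left-out libraries, where 1 sample replaces a group. Without Tbx20_OE replicate 1, and likewise without control replicate 1, the count was 7, and without control replicate 2 it was 5, Ankrd2 included. Genes apart and lower, 0 with all libraries, were 0 without Tbx20_OE replicate 1, 1 without Tbx20_OE replicate 2, 2 without control replicate 1 and 1 without control replicate 2. Groups come apart more easily when 1 heart stands for a group. The share of all tested genes apart was not computed for these settings or for median centring. These counts are therefore not a result about the 10 genes. Ankrd1, Ankrd23 and Nebl kept a positive difference under every alternative run. Nebl was not tested at a mean of at least 5 FPKM. The other tested genes changed sign under at least 1 alternative. Unknown depth and 2 hearts in each group limit all values.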

Other observations

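Smooth muscle markers, 6 genes, summed to 132 and 99.4 FPKM in Tbx20_OE and 71.1 and 94.0 FPKM in control hearts. Groups were apart and higher in Tbx20_OE for 4 of the 6, against 28.1% of all tested genes, and overlapped for Mylk and Smtn. None of the 6 was called by limma at an adjusted p under 0.05. Fibroblast markers, 7 genes, summed to 512 and 430.4 FPKM in Tbx20_OE and 385 and 393 FPKM in control hearts. Endothelial markers summed to 174 and 135 FPKM in Tbx20_OE and 143 and 131 FPKM in control hearts, and macrophage markers, of which 6 of 7 were measured, to 146 and 89.9 FPKM in Tbx20_OE and 124 and 92.9 FPKM in control hearts. Mesothelial markers summed to 29.9 FPKM in control replicate 2 and to 2.17 to 2.44 FPKM in the other libraries. The part of these cell types in the Z-disc values was not tested.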
